A study of Rattus norvegicus with 2 samples.

Results

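The clustered ZHX2 peaks of rat vascular smooth muscle cells (VSMCs) are the binding regions whose summit, the position of highest enrichment, had another summit within 100000 bp on the same chromosome. There were 719 of them among 1987 summits on 18 autosomes, or 36.2% (exact 95% interval, 34.1% to 38.3%, which treats summits as independent). They were chosen by position, after close peaks had been joined, from the list of 2331 peaks deposited for 1 chromatin immunoprecipitation (IP) library. Autosomes 1 to 20 were used without chromosomes 10 and 12, which left 2021 peaks. Peaks less than 1000 bp apart were first counted as 1, keeping the one with the highest score. A broad region split into peaks that close could therefore not form a cluster with itself. One split more widely still could, and joining peaks under 5000 bp apart left 697 clustered summits.

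The cells were primary VSMCs of the rat in culture, crosslinked for 10 min in 1% formaldehyde. Of the sonicated chromatin, 90% went to the precipitation with an antibody against ZHX2 and 10% was kept as input, with no antibody. No treatment or genotype separates the 1 IP library from the 1 input library. The vessel, the age and number of the animals and the passage are not given in the sources used here, and a peak list holds no expression by which the cell type could be checked. Without replicates no spread between libraries could be measured. All values below therefore describe this pair of libraries, and no test was made.

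ZHX2 is a nuclear protein with zinc fingers and homeodomains, both of which are DNA-binding folds. It is best known as a repressor of the alpha-fetoprotein gene in the adult liver, and its family was found through contact with a subunit of the CCAAT-binding factor NF-Y. VSMCs hold the tone of the vessel wall and can change from a contractile to a dividing, matrix-producing state. Binding regions that lie near each other on a chromosome may belong to the same regulatory domain or to neighbouring genes. Positions are in rn6, the build named in the submitters' processing notes. Of the clustered peaks, 16 on 3 chromosomes ended past the last gene of the GRCr8 assembly, the farthest by 7.01 Mb, so no gene or sequence of that assembly was assigned to them.

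The 719 summits formed 299 clusters, in which each summit lay within 100000 bp of the next. A cluster of 2 summits was the usual form, with 219 clusters or 73.2% (exact 95% interval, 67.8% to 78.2%). There were 54 clusters of 3 summits, 18 of 4, 4 of 5, 2 of 6, 1 of 7 and 1 of 8. The 80 clusters with at least 3 summits held 281 summits, or 39.1% of all clustered ones. Clusters of 2 spanned a median of 39375 bp from summit to summit (95% interval of the median, 32295 to 43685 bp). Those of at least 3 spanned a median of 103318 bp (85167 to 116693 bp) and at most 373900 bp. The nearest other summit lay at a median of 36073 bp from a clustered summit (31450 to 39407 bp). All clusters together spanned 18.6 Mb.

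Inside the clusters, 420 gaps separated neighbouring summits. Their median was 39905 bp (95% interval of the median, 34842 to 43898 bp), the middle 50% ran from 19713 to 67406 bp, and the extremes were 1522 and 99654 bp. Gaps of up to 10000 bp numbered 44 of the 420 or 10.5%, after the joining of close peaks had removed the shortest. A further 101 or 24.0% lay between 10000 and 25000 bp, and 103 or 24.5% between 25000 and 50000 bp. The remaining 172 or 41.0% lay between 50000 and 100000 bp. These ranges differ in width, so their counts cannot be compared directly. The median lay below 50000 bp, so gaps under 50000 bp were more frequent than longer ones. Most gaps thus far exceeded the width of a peak, as the plot of gaps shows. The limit of 100000 bp cut through a continuous range.

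**Figure D1:**
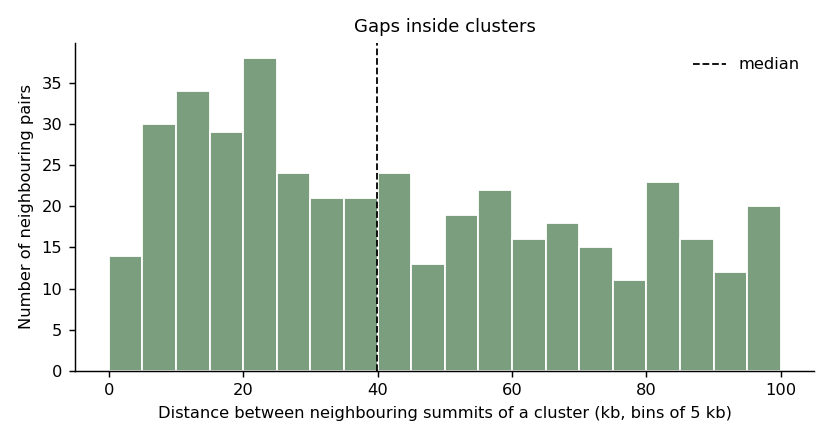
Distances between neighbouring summits inside the 299 clusters. The x axis gives the distance in kb in bins of 5 kb, the y axis the number of neighbouring pairs (420 in all), and the dashed line the median of 39905 bp. Pairs were most frequent below 25 kb, and the counts did not fall to 0 towards the limit of 100 kb.

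The 5 gaps just inside the limit ran from 98905 to 99654 bp, and the 5 just outside it from 100294 to 101010 bp. Just inside, summits with folds of 5.16 and 14.97 on chromosome 6 lay 98905 bp apart, and those with folds of 6.01 and 6.41 on chromosome 2 lay 99654 bp apart. Just outside, summits with folds of 5.93 and 5.00 on chromosome 5 lay 100294 bp apart. In 5 of these 5 outer pairs at least 1 summit was clustered all the same, through a nearer neighbour on its other side.

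In fold, the clustered summits were of ordinary strength for this list, while their IP to control ratio, given below, had a lower median. The fold is the authors' enrichment of the IP at the summit over the local background. Its median was 7.26 in the clustered summits (95% interval of the median, 7.07 to 7.50). The middle 50% of these folds ran from 6.01 to 9.29, the lowest was 3.68 and the highest 27.4. The 1268 summits with no other within 100000 bp had a median fold of 7.12 (6.97 to 7.25), and the 251 with none within 1 Mb had 6.88 (6.65 to 7.30). In 147 clustered summits, or 20.4% (exact interval, 17.6% to 23.6%), the fold was 10 or more, beside 19.9% of all 1987 summits. In 7, or 0.974%, it was 20 or more, beside 1.16% of all. The median width was 296 bp in the clustered summits and 297 bp in the others, and the median −log10 of the q-value was 7.16 against 6.38. The intervals of all these medians and shares overlapped. They treat summits as independent, which neighbours in a cluster are not.

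Across distances to the nearest summit, strength differed by less than the intervals. The 28 summits with a neighbour within 5000 bp had a median fold of 7.76 (95% interval of the median, 6.32 to 9.13), and the 263 with the nearest at 50000 to 100000 bp had 7.45 (6.93 to 7.65). Of these 263, 62 or 23.6% (exact interval, 18.6% to 29.2%) had a fold of at least 10, beside 19.9% of all summits. In the nearer ranges this share ran from 17.4% to 28.6%. The number of summits in the cluster went along with a small rise that did not exceed the intervals. The median fold was 7.09 (6.82 to 7.47) in clusters of 2, 7.36 (7.05 to 7.65) in clusters of 3, 7.54 (7.09 to 8.32) in clusters of 4 and 7.85 (6.64 to 9.34) in the 47 summits of clusters of 5 to 8.

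The cluster with most summits held 8, from 173051675 to 173426122 on chromosome 5, over 373900 bp. Its folds were 10.7, 9.62, 11.96, 7.84, 7.17, 10.2, 9.97 and 8.81 in order along the chromosome, and its summits held between 50 and 122 IP tags. A tag is a read or fragment as the peak caller counted it, in the IP or in the control, and the numbers were recovered from the deposited fold and p-value. Which library served the authors as control is not named in the sources; taking it to be the input is an inference. In fold, none of the 8 was weak or outstanding: the strongest exceeded the weakest 1.67 times. At 5 of the 8 summits, 1 control tag over the summit set the local background. The IP to control ratios of the 8 were less even and ran from 13.3 to 89.2. At those 5 summits the lower limits of the exact intervals of the ratio were only 2.31 to 3.60, against 9.32 to 66.2 at the others. The gaps were uneven, from 8465 to 98035 bp, and the last peak was 952 bp wide, against 321 to 524 bp for the other 7.

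A cluster of 7 summits from 89595012 to 89797789 on chromosome 13 spanned 202389 bp. Its folds were 6.14, 11.6, 12.5, 10.3, 8.32, 6.30 and 10.1, and its IP tags 34, 115, 73, 101, 81, 60 and 69. At 4 of its 7 summits, 1 control tag over the summit set the local background. The first 4 summits followed each other at almost equal steps of 24387, 24467 and 24188 bp, which differ by 1.01 times at most. This run was singled out after its values were seen. It was the only one of the 26 clusters with at least 4 summits that held 3 gaps in a row within 5% of each other. Even 2 such gaps in a row occurred in only 1 of the 80 clusters with at least 3 summits, the same one. The limit was applied to the list in which the run was found, so these counts do not measure how rare it is. Some gaps fell just past the limit, for example 28744 and 30225 bp on chromosome 3, and 23646 and 24954 bp on chromosome 15. The evenly spaced peaks were not alike in strength, since the first held 34 IP tags and the second 115. Their widths were 413, 419, 354 and 496 bp.

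On chromosome 19, 6 summits from 25955242 to 26173959 had folds of 12.3, 5.81, 6.64, 6.76, 6.30 and 7.85. The first stood out with 122 IP tags, and the other 5 held 35 to 60. On chromosome 20, 6 summits from 5441511 to 5608491 had folds of 9.34, 5.30, 6.64, 6.69, 5.74 and 7.85, with 84, 57, 98, 66, 84 and 44 IP tags. In this cluster too the control was denser than at most clustered summits. The local background was between 0.844 and 2 control tags at the first 5 summits and 0.211 at the last, against a median of 0.422 over all clustered summits. With the control tags taken into account, the summit with most IP tags of this cluster, 98, had an IP to control ratio of 9.47 (exact 95% interval, 2.55 to 79.3). That with fewest, 44, had 40.3 (6.86 to 1627). The 2 intervals overlap, and neither summit was shown to be the more enriched.

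The fifth cluster, on chromosome 8 from 22021144 to 22185271, combined a very strong summit with 4 ordinary ones. Its first summit had a fold of 22.0 and 157 IP tags, and the next, 13880 bp away, had 5.72 and 54. The other 3 had folds of 10.02, 7.22 and 9.81. The map of the 5 clusters shows these patterns side by side.

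**Figure D2:**
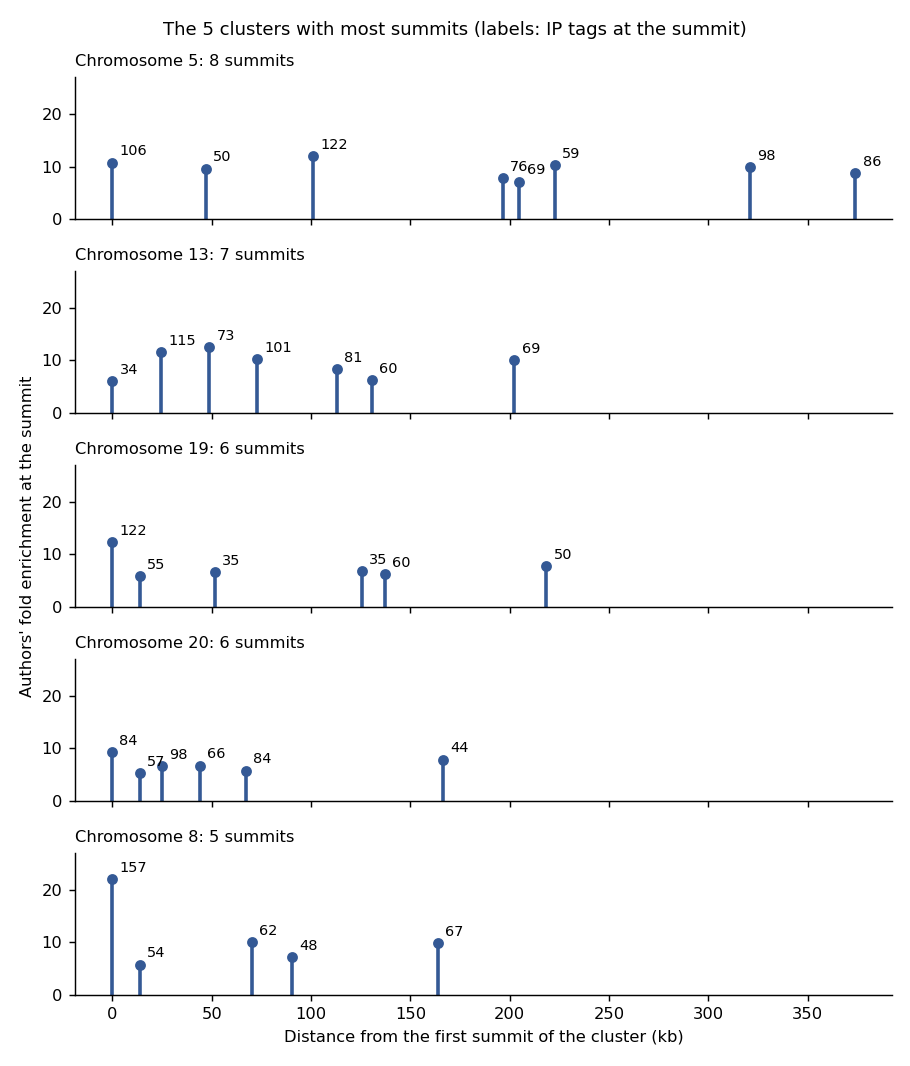
The 5 clusters with most summits. The x axis gives the distance from the first summit of the cluster in kb, the y axis the authors' fold enrichment, and the number at each point the IP tags at the summit. The first 4 points of the chromosome 13 cluster are evenly spaced, and the first point of the chromosome 8 cluster, at a fold of 22.0, stands above the other 4.

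Ranked by −log10 q, the top 10 clustered summits came from 8 chromosomes, with folds from 19.4 to 27.4 and 106 to 279 IP tags. Their nearest clustered neighbours were mostly ordinary peaks 8074 to 69729 bp away, with folds from 5.72 to 14.3 and 28 to 108 IP tags. Only 2 of the 10 neighbours reached a fold of 10. The strong summits exceeded their neighbours by a median of 3.06 times in fold, and by 1.498 to 4.43 times. The 10 were picked for their strength, so that a weaker neighbour follows from the choice.

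The strongest, chr19:41894739-41895441, had a fold of 27.4 and 279 IP tags, and its only neighbour, chr19:41958829-41959130, had 6.19 and 35 tags. On chromosome 4 the peak chr4:157554387-157554911 had a fold of 25.6 with 147 tags in a cluster of 4, and its neighbour chr4:157486737-157487111 had 10.9 with 108. Near the start of chromosome 18 the peak chr18:413494-414015 reached 23.4 with 167 tags, and 2 further summits preceded it within 14500 bp. The nearer of these, chr18:402017-402287, had a fold of 9.10 and 47 tags. Only chr1:221448410-221448825, with a fold of 21.4 and 129 tags, had a neighbour of comparable rank: chr1:221440295-221440761, 8074 bp away, had 14.3 and 100.

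In the 219 clusters of 2, the stronger summit exceeded the weaker by a median of 1.32 times in fold (95% interval of the median, 1.26 to 1.36). In 66 of them, or 30.1%, the ratio was at least 1.5, in 37 or 16.9% at least 2, and in 6 at least 3. The largest was 4.43, for the strongest summit described above. The ratio was much the same for summits farther apart. Over all 420 neighbouring pairs inside clusters the ratio had a median of 1.33 (1.30 to 1.36), and over the 399 neighbouring pairs at 200000 to 500000 bp it was 1.32 (1.27 to 1.37), with overlapping intervals. Across the 420 pairs, which share both libraries and are not independent, Spearman's rho between the folds of neighbours was 0.0157. For the IP tags it was 0.0588, and for the backgrounds 0.0433. Among the 44 pairs up to 10000 bp apart it was 0.117 for fold, 0.188 for IP tags and 0.370 for the background. What lies behind these values was not tested.

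**Figure D3:**
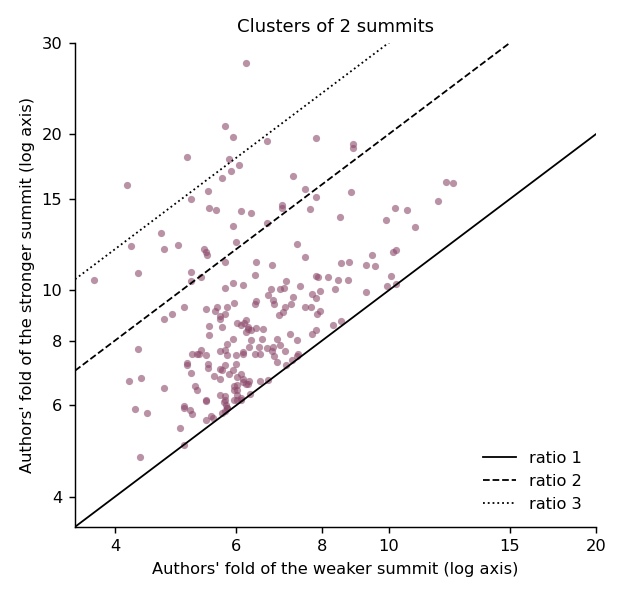
Fold of the weaker (x axis) and stronger summit (y axis) in the 219 clusters of 2, both on log axes. Lines mark equal fold and ratios of 2 and 3. In 182 clusters the point lies below a ratio of 2, and the point farthest from equality has a fold of 27.4 against 6.19.

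Of the 299 clusters, 179 had no summit with a fold of at least 10, 97 had 1 and 23 had at least 2. These counts stand beside a share of 19.9% of all summits at that fold, and nothing particular to clusters was read from them. Every summit reached that fold in 10 clusters, all of them clusters of 2, each on a different chromosome. Their spans ran from 4353 to 99362 bp, their folds from 10.1 to 16.2 and their IP tags from 55 to 121. The tightest of them, chr16:19762986-19767728 from the first peak's start to the last peak's end, held summits with folds of 10.26 and 10.30 and 101 IP tags each. In the 80 clusters of at least 3 summits, the strongest lay at an end in 50, or 62.5% (exact interval, 51.0% to 73.1%), where ends made up a mean of 59.8% of the summits.

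The 5 closest pairs had gaps of 1522 to 2899 bp. On chromosome 3 the peaks chr3:11927058-11927364 and chr3:11928539-11928881 had folds of 8.46 and 6.73 with 46 and 37 IP tags. Also on chromosome 3, 1691 bp apart, chr3:164963337-164963585 had a fold of 7.30 with 43 tags, and chr3:164965059-164965336 had 3.99 with 98. The lower fold went with more IP tags, and 4 control tags lay over that summit. On chromosome 1, chr1:57489456-57489923 had a fold of 16.6 with 90 tags, and chr1:57491260-57491489, 1700 bp on, had 7.26 with 70. The closest pairs on chromosomes 6 and 18 had folds of 7.65 and 5.68, and of 7.87 and 9.10. Among all clustered summits, 16 stood for a pair of peaks less than 1000 bp apart, with a median fold of 8.50. Each was the peak kept for its score, so that a higher fold follows in part from the choice.

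The control at clustered summits was alike in some measures and not in others. The median background was 0.422 control tags both in clustered summits and in those with no summit within 100000 bp. In those with none within 1 Mb it was 0.232 (95% interval of the median, 0.211 to 0.422). Backgrounds from 1000 bp applied to 44.8% of clustered summits and 45.3% of those with none within 100000 bp. For backgrounds from 10000 bp the shares were 13.8% and 12.7%. Control tags over the summit itself set the background of 216 clustered summits, or 30.04% (exact 95% interval, 26.7% to 33.5%), against 24.8% (22.5% to 27.3%) of those with no summit within 100000 bp, with intervals that just overlap. The lowest background of the list, 0.108 control tags, applied to 82 clustered summits, or 11.4% (9.17% to 14.0%), against 17.1% (15.1% to 19.3%), with intervals that do not. It applied to 19.9% (15.2% to 25.4%) of those with no summit within 1 Mb. The IP tags were a median of 58 (57 to 61) in clustered summits and 55 (53 to 57) in the others. The IP to control ratio leaves out the pseudocount of 1 contained in the fold. Its median was lower in clustered summits, 22.4 (20.6 to 25.6) against 28.4 (26.1 to 30.2), with intervals that do not overlap. All of these intervals treat summits as independent, which neighbours in a cluster are not, so they may be too narrow. The values came from the same IP and control comparison that gave the list, so no test was made. The part that control density plays in the clustering was not tested.

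**Figure D4:**
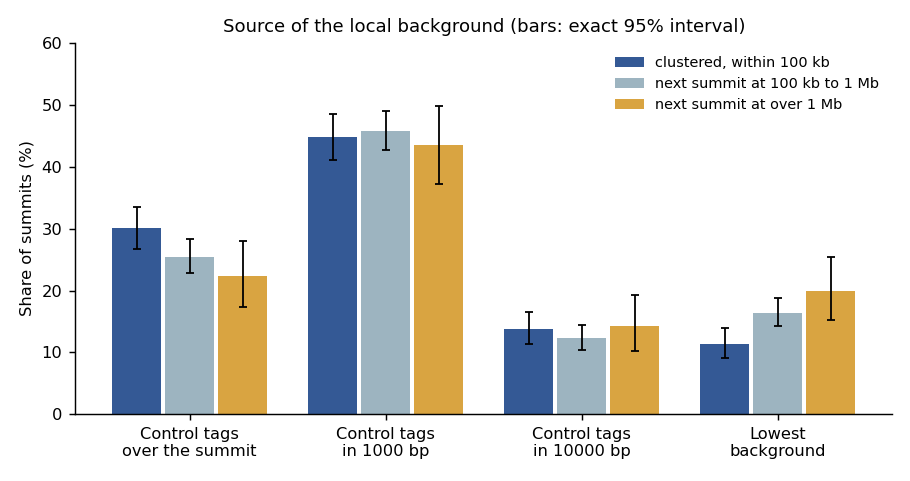
Share of summits by the source of their local background, for clustered summits (719), summits whose nearest other lies at 100 kb to 1 Mb (1017) and at over 1 Mb (251). Bars are percentages with exact 95% intervals, which treat summits as independent. The lowest background applied to 11.4% of clustered summits and to 19.9% of those over 1 Mb apart.

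At least 3 control tags lay over 16 clustered summits, or 2.23%, beside 2.05% of the others. These had 72 to 156 IP tags but folds of only 3.68 to 7.78 and ratios from 4.35 to 10.05. For 433 clustered summits, or 60.2% (exact 95% interval, 56.5% to 63.8%), the lower limit of the ratio was above 5, against 66.6% (63.9% to 69.2%) of those with no summit within 100000 bp. The intervals of these shares just fail to overlap, but they treat summits as independent and may be too narrow. The intervals of the single ratios were broad, with upper limits that exceeded the lower by a factor of 31.4 at the median, and they cover counting error only.

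Clusters occurred on each of the 18 chromosomes, from 7 clusters on chromosomes 11, 13 and 17 to 47 on chromosome 1. The clustered share of summits was highest on chromosome 3, with 81 of 179 or 45.3% (exact 95% interval, 37.8% to 52.8%), and on chromosome 1, with 114 of 263 or 43.3% (37.3% to 49.6%). It was lowest on chromosome 17, with 18 of 80 or 22.5% (13.9% to 33.2%), and on chromosome 14, with 23 of 96 or 24.0% (15.8% to 33.7%). For these 4 chromosomes the interval lay off the overall 36.2%, and for the other 14 it included it. The intervals treat summits as independent, but a clustered summit always has a clustered neighbour, so they may be too narrow. Each of the 18 chromosomes was looked at separately. Across the 18 chromosomes, which share both libraries, the share had a Spearman correlation of 0.434 and a Pearson correlation of 0.318 with the number of summits per Mb. A clustered summit is defined by its distance to the next, so the share tends to rise with density by construction. No conclusion was drawn from these correlations. The densest, chromosome 20 with 1.23 summits per Mb, had a share of 34.8% (23.7% to 47.2%), an interval that includes the overall value. The median fold of clustered summits ran from 6.74 on chromosome 7 to 8.32 on chromosome 13, where 7 of the 21 belong to the cluster of 7 described above. Neighbouring clusters were separated by a median of 3.36 Mb, and 81 of 281 such gaps, or 28.8%, were at most 1 Mb.

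**Figure D5:**
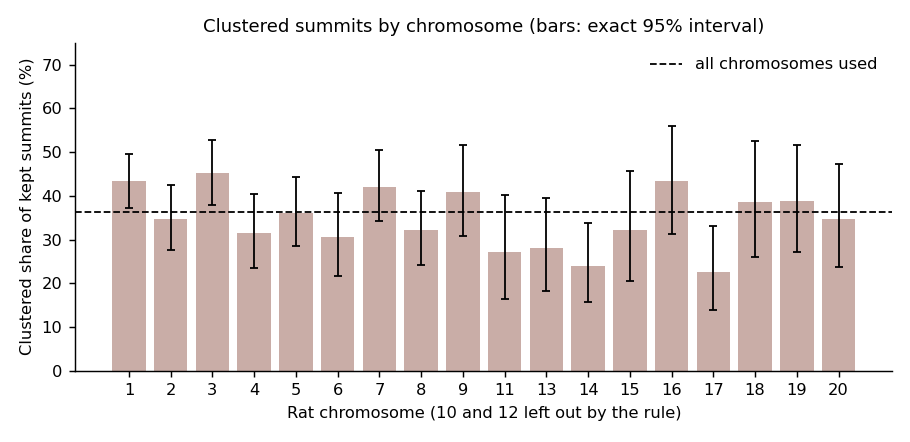
Clustered share of the kept summits on each chromosome used, in percent, with exact 95% intervals. The dashed line marks 36.2% over all 18 chromosomes, and the intervals of chromosomes 1 and 3 lie above it and those of 14 and 17 below it. The intervals treat summits as independent, which neighbours in a cluster are not.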

How the data were processed

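Peaks of 1 ZHX2 IP library from primary rat VSMCs were analysed; no file of the input library was analysed here. The deposited list has the 10 columns of the narrowPeak layout. Per the submitters' processing notes, which give no role or order, Trimmomatic 0.36, STAR 2.5.3a, MACS2 2.1.1 and build rn6 were used. The authors deposited a fold enrichment (a ratio), the −log10 of p-value and q-value, a score that is 10 times the −log10 q with decimals dropped, and the summit offset.

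Rows less than 1000 bp apart were counted as 1, keeping the highest score, and 34 kept summits stood for more than 1 row. IP tags and backgrounds were recovered from fold and p under the MACS formulas with a pseudocount of 1: fold and p of 2331 of 2331 rows matched whole tags scaled by 0.193, and where several counts matched (14 rows) the one nearest a background level was used. Total depth is not given in the sources used here. Joining and recovery were tested on simulated data. Python 3.11.15, pandas 2.3.3 and scipy 1.17.1 were used. Intervals are exact (Clopper-Pearson, or Poisson at the lowest background) or from order statistics.

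Named were the 5 clusters with most summits, the 10 clustered summits with the highest −log10 q, the 5 closest pairs and the 5 on each side of the limit; other peaks were chosen after their values were seen. The members, rules and lists were chosen with earlier results of these data known. The planned gene lists, motifs and sequences were not used here, since no genome of build rn6 was used.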

Additional observations from a re-analysis of the deposited data

How the results depend on the processing

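Of 48 values recomputed under 6 alternatives, 30 stayed inside the interval of the value given above (for counts, less than 1.5 times off) and 18 moved. All moves follow from the construction of the alternative at least in part, since each removes or adds summits; further causes were not tested. With a −log10 q of at least 5, 401 summits in 171 clusters remained, with a median nearest distance of 41858 bp, a median fold of 8.23, a median −log10 q of 9.06, a median width of 328 bp and 28.2% at a fold of at least 10. With a limit of 50000 bp, 456 summits were clustered, 85.6% of the clusters held 2 summits and the median nearest distance was 21963.5 bp. With 200000 bp these last values were 63.3% and 60527 bp. Without joining of close rows the nearest distance was 30374 bp, and joining rows under 5000 bp apart moved nothing beyond these limits. Restricting the list to rows with a background below 1 control tag was chosen after seeing the data. It left 323 summits in 146 clusters, 82.2% of them of 2, with a nearest distance of 41775 bp and 24.1% at a fold of at least 10. The alternatives on promoters, GC content, repeats, motifs, sequence similarity and gene lists were not run for lack of an rn6 genome in the material used here. No paired analysis was possible because the IP and the input have 1 library each, and with 1 library none could be left out in turn. The sparse control limits every ratio.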
